A study of Mus musculus with 3 samples.

Results

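The 45 genes described here mark 2 stretches of the cell cycle: 22 genes of S phase, when DNA is copied, and 23 genes of G2 and mitosis (G2M), when chromosomes condense and separate. They were taken from a fixed list of symbols, and all 45 were present among the 17551 genes of the deposited expression table. Their levels were followed across the deposited cell clusters, numbered 0 to 10, and across the 4 brains of the study. The study used CITE-seq, which reads the transcripts of single cells together with DNA tags on antibodies bound to their surface. Naive female C57BL/6 mice aged 2 to 3 months were set beside mice of the same sex, strain and age that carried brain metastases of the mammary carcinoma cell line E0771, which comes from the mouse, grown for about 2 weeks after injection into the carotid artery. Each of 4 brains received its own hashtag antibody and 6 antibody tags before all cells were run as 1 pool. The sources used here do not say which hashtags marked naive brains, so brains are named by hashtag and no naive brain is compared with a metastatic one.

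The cell cycle runs on kinases that need a cyclin partner. Cyclin E with its kinase starts DNA copying, which is carried out by the Mcm helicase, the sliding clamp Pcna and enzymes that make nucleotides. Cyclins A and B with Cdk1 then drive mitosis, in which motor proteins and the kinases Aurka, Aurkb and Plk1 build and use the spindle, and the ubiquitin ligase that Cdc20 and Ube2c serve ends it. S genes are classically switched on by E2F factors, whereas G2M genes are known as targets of the DREAM and MuvB complexes, which bind a short element called CHR, often beside CCAAT boxes bound by NF-Y. Proliferation is known from tumor cells and from early marrow precursors of the neutrophil and erythroid lines, whereas the mature choroid plexus rarely divides.

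The promoters of the 2 groups carried different motifs. RefSeq promoter windows (GRCm38.p6, 250 bases before to 50 after the start) were found for 38 of the 45 genes, 19 of each group. The CHR letters TTTGAA, searched on both strands, stood in 13 of 19 G2M genes (68.4%) and in 1 of 19 S genes, Mcm2, against 17.9% of all 32851 promoter windows. An E2F form (TTTCCCGC, TTTGGCGC, TTTCGCGC or TTTGCCGC, both strands) stood in 8 of 19 S genes (42.1%) and in 1 of 19 G2M genes, Cdk1, against 2.26% of all windows. CCAAT stood in 17 of 19 G2M genes and 11 of 19 S genes, against 37.4% of all windows. A match describes these letters and not a bound site, and no test was made.

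Promoters of 4 genes are shown as examples that hold these motifs: the mitotic cyclin gene Ccnb2 and its kinase gene Cdk1, and the helicase subunit genes Mcm5 and Mcm6. Capitals mark the CHR letters, CCAAT boxes and E2F forms on either strand, of which the E2F matches overlap one another once in Mcm5 and once in Mcm6. The windows are chr9:70421505-70421804 (minus strand) for Ccnb2, chr10:69352863-69353162 (minus strand) for Cdk1, chr8:75109259-75109558 (plus strand) for Mcm5 and chr1:128359656-128359955 (minus strand) for Mcm6.
Ccnb2: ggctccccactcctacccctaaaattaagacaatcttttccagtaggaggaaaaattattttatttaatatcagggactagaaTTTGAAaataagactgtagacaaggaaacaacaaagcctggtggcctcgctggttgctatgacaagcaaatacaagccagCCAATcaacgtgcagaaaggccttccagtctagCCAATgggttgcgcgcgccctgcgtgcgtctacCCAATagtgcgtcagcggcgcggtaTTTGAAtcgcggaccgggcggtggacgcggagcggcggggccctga
Cdk1: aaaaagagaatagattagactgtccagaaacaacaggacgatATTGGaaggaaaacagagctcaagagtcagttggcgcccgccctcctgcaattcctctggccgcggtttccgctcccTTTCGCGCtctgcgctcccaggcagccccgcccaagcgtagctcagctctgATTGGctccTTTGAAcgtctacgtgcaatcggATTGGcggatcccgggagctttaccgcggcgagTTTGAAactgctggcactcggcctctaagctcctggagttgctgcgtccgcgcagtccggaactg
Mcm5: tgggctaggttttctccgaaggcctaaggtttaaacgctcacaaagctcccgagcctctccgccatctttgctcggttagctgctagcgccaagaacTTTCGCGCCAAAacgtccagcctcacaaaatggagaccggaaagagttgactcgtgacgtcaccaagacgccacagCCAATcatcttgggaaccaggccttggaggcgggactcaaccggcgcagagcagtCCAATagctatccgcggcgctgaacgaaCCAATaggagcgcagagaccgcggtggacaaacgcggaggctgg
Mcm6: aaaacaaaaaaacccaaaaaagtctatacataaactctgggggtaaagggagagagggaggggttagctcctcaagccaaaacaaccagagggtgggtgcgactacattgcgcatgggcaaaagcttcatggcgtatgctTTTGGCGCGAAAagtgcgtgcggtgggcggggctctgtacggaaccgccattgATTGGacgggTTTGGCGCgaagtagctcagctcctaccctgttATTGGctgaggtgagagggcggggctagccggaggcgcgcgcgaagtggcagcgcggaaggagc
Ccnb2 and Cdk1 each hold 2 CHR matches, of which the nearest lies at bases 5 to 10 after the start in Ccnb2 and at -15 to -10 before it in Cdk1. Mcm5 and Mcm6 hold no CHR match in this window.

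The clusters had been made by the authors from the expression of these same cells, so a difference between clusters is a description and carries no test. Levels are means over cells of UMIs per 10000 UMIs of the cell, where a UMI is a molecular barcode that counts 1 mRNA molecule once, and brains with fewer than 20 cells of a cluster are left out unless named. Clusters 0, 2 and 7 held the Rhox5 and Esx1 transcripts of the carcinoma list and are left unnamed here. Krt8 of that list was also higher there (2.84, 2.75 and 2.80) than in cluster 1 (0.82). Krt18 went the other way, at 0.10, 0.15 and 0.14 against 1.42 in cluster 1. Epcam (0.002, 0.015 and 0 against 0.034) and Cdh1 (0.002, 0.007 and 0.004 against 0.039) did so too, and Krt19 was at most 0.0017. Cluster 10, led by hemoglobin genes, held Rhox5 and Esx1 at a like level (Rhox5 4.11 and Esx1 4.10, against 4.68 and 4.36 in cluster 0). Cluster 7 was led by Ube2c, Cdk1, Cenpf and Birc5 among its top 10 genes, so its high G2M level follows in part from how it was made. Cluster 2 had 1 member, Ube2c, among its top 10, so the same limit holds there. That top 10 was led by the antibody genes Iglc1, Igkc, Jchain, Ighm, Iglc2 and Ighg2b. The 5 B cell markers summed to 10.2 over all cells of cluster 2, of which Igkc gave 10.1. Cluster 6 was neutrophil-like, led by Camp, S100a8, Ngp and S100a9 together with the precursor granule genes Elane, Ctsg, Mpo and Prtn3, and 171 of its 223 cells came from the hashtag 1 brain. Cluster 1 was choroid plexus-like and serves as the reference for levels. Free RNA in the droplets was not measured directly. Median depth was 13009 UMIs per cell in cluster 0, 18775 in cluster 2, 27670.5 in cluster 7, 3715 in cluster 6 and 7282.5 in cluster 1.

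Clusters 0, 2, 7 and 6 all carried G2M and S transcripts above cluster 1 in every brain with 20 cells of both clusters. The summed G2M level of cluster 6 was 40.6 for hashtag 1 and 26.3 for hashtag 3 (mean 33.5 ± 10.1, SD, n = 2 brains). In cluster 7 it was 17.4 for hashtag 3 and 23.1 for hashtag 4 (20.2 ± 3.98, SD, n = 2 brains). In cluster 1 it was 2.89, 2.17, 3.69 and 4.92 for hashtags 1, 2, 3 and 4 (3.41 ± 1.18, SD, n = 4 brains). Every brain of clusters 6 and 7 thus lay above every brain of cluster 1.

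Clusters 0 and 2 split by brain. The summed G2M level of cluster 2 was 7.89, 5.02, 18.4 and 20.1 for hashtags 1, 2, 3 and 4. That of cluster 0 was 7.28, 15.4 and 14.6 for hashtags 1, 3 and 4. The hashtag 3 and 4 brains were high and the hashtag 1 and 2 brains low, without overlap. The low brains held few of these cells, 41 and 24 in cluster 2 and 44 in cluster 0 of the hashtag 1 brain, against 285 and 428 in cluster 2 of the hashtag 3 and 4 brains. Their cells in cluster 2 also had a median mitochondrial share of 13.2% and 13.3%, against 1.20% and 1.18%, and the 8 choroid plexus markers summed to 1859 and 1790 per 10000 there, against 219 and 188. In cluster 0 these markers summed to 1674 in the hashtag 1 brain, against 163 and 139 for hashtags 3 and 4, and the 7 mammary carcinoma markers to 8.36, against 13.3 and 11.6. In cluster 2 the carcinoma markers summed to 5.18 and 4.42 for hashtags 1 and 2, against 13.4 and 11.9 for hashtags 3 and 4. The B cell markers of cluster 2, at 10.2 over all its cells, summed to 0.29 to 0.36 in the hashtag 3 and 4 brains. Cells with antibody transcripts thus lay in the hashtag 1 and 2 brains, whose own sums are not given here. The part of any of these in the levels was not tested.

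The S level was lower and more even between clusters. Summed over the 22 S genes it was 12.2 and 9.19 in cluster 6 (hashtags 1 and 3), 8.58 and 8.81 in cluster 7 (hashtags 3 and 4), and 4.46, 3.99, 9.49 and 10.1 in cluster 2 (hashtags 1, 2, 3 and 4). In cluster 0 it was 4.60, 8.17 and 8.56 (hashtags 1, 3 and 4), and in cluster 1 it was 2.1, 2.03, 2.75 and 3.23. In the hashtag 3 and 4 brains cluster 7 lay below cluster 2 in S level. The ratio of the G2M to the S level was 3.32 and 2.87 in cluster 6, 2.03 and 2.62 in cluster 7, between 1.26 and 1.98 in cluster 2, between 1.89 and 4.08 in cluster 3 and between 1.07 and 1.53 in cluster 1. Without the G2M gene Hmgb2 it was 1.55 and 1.33 in cluster 6 and 1.54 and 2.08 in cluster 7, so cluster 6 no longer lay above cluster 7.

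**Figure D1:**
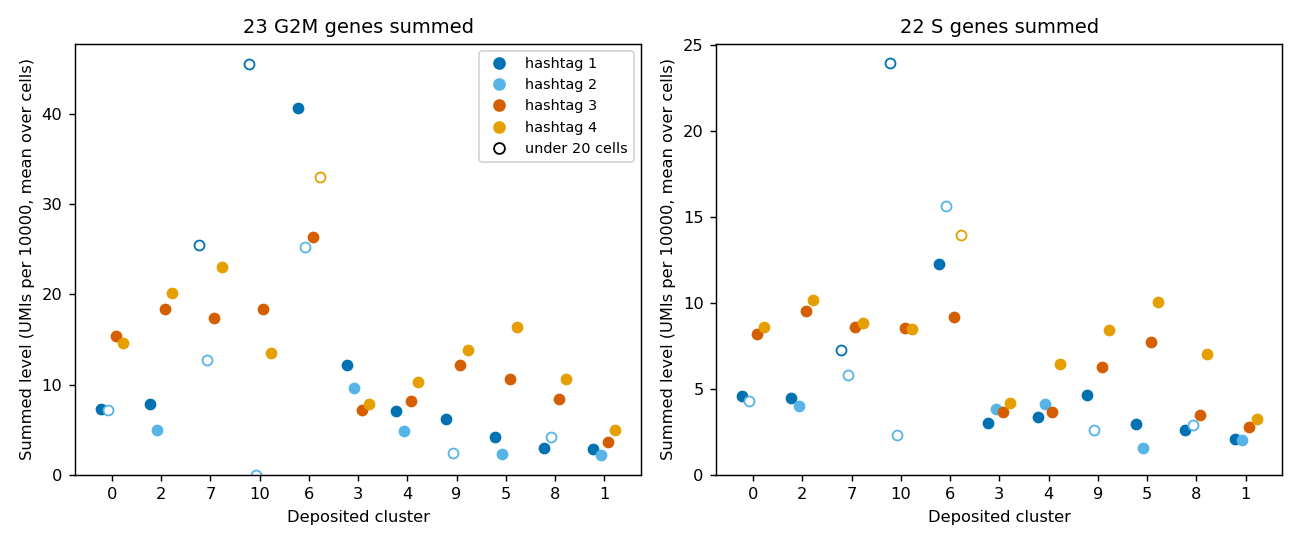
Summed level of the 23 G2M genes (left) and the 22 S genes (right), in mean UMIs per 10000, by deposited cluster (x axis). Each point is 1 brain, and hollow points have fewer than 20 cells. Cluster 6 reached 40.6 for G2M genes in the hashtag 1 brain, while cluster 1 lay at or below 4.92 in all 4 brains.

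A level per 10000 depends on the whole RNA content of a cell. Counted as UMIs per cell, G2M genes gave 16.7 and 11.3 in cluster 6 (hashtags 1 and 3), 49.6 and 65.9 in cluster 7 (hashtags 3 and 4) and 20.5 and 19.1 in cluster 0 of the hashtag 3 and 4 brains. By this count cluster 6 lay below clusters 0, 2 and 7 in the hashtag 3 brain, where cluster 2 gave 35.4. In the hashtag 1 brain it lay above clusters 0 and 2, with 7.20 in cluster 0 and 12.1 in cluster 2. Cells of cluster 1 gave between 1.57 and 6.48.

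Members rose above cluster 1 unevenly. On the scale log2(level + 0.1), 15 of 23 G2M genes and 8 of 22 S genes were at least 2-fold higher in cluster 7 than in cluster 1 in every brain with 20 cells of both, against 7.53% of the 12669 genes with a UMI in at least 1% of cells. In cluster 6 it was 15 of 23 G2M genes and 10 of 22 S genes, against 7.14% of all genes. In cluster 0 it was 4 G2M genes (Birc5, Cks2, Ccnb2 and Cenpf) and 1 S gene (Tk1), against 4.78%. The 1 of 22 S genes there is near that share. In cluster 2 it was 3 G2M genes (Cdk1, Hmgb2 and Top2a) and 1 S gene (Rrm2), against 1.25%. By any size, cluster 7 lay above cluster 1 in both brains for all 45 genes, against 50.1% of all genes. The rule asks for every brain, so with fewer brains any gene passes it more easily. The share of all genes is not given for such sets, so the counts that follow are descriptions. Without hashtag 1, cluster 0 had 10 G2M and 9 S genes, and cluster 2 had 5 and 5, or 9 and 3 without hashtag 2. Cluster 7 had 14 S genes without hashtag 4, and cluster 6 had 17 without hashtag 3.

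Clusters 0, 2 and 7 were then compared with one another. No G2M and no S gene was 2-fold higher in every brain in cluster 2 against cluster 0 (0.0158% of all genes), in cluster 7 against cluster 0 (0.608%) or in cluster 7 against cluster 2 (0.403%). The median log2 difference of the G2M genes was 0.28 for cluster 2 against 0 and 0.32 for cluster 7 against 0, beside 0.02 and 0.01 over all genes. Cluster 7 was higher than cluster 0 in both brains for 18 of 23 G2M genes and 7 of 22 S genes, against 31.4% of all genes, and lower for 8 S genes, against 27.1%. The 7 of 22 S genes are near the share of all genes, so they do not set the S members apart. Against cluster 2, cluster 7 was lower in both brains for 15 of 22 S genes (against 28.5% of all genes), with a median log2 difference of -0.15, beside 0.04 for the G2M genes.

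Cluster 6 stood above cluster 3, the macrophage-like cluster led by Ctss and C1qc that also carries the CD45 tag. In both brains with 20 cells of each, 13 of 23 G2M genes and 9 of 22 S genes were at least 2-fold higher, against 1.52% of all genes. Against cluster 2, a contrast added after the data were seen, 2 of 23 G2M genes (Mki67 and Hmgb2) and 0 of 22 S genes passed, a share of the 45 near the 3.91% of all genes.

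**Figure D2:**
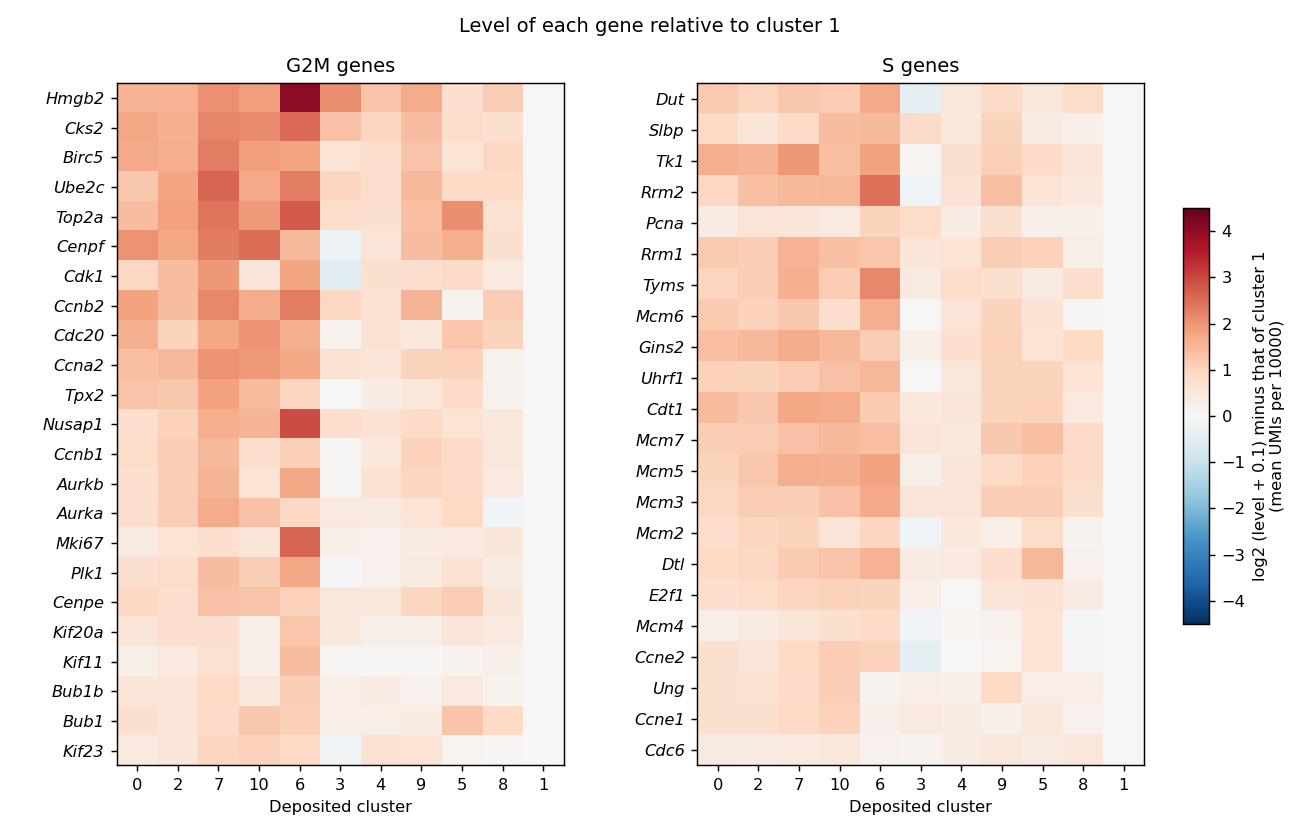
Level of each G2M gene (left) and S gene (right) in each deposited cluster, as log2(level + 0.1) minus that of cluster 1, where level is mean UMIs per 10000 with brains weighted equally. Hmgb2, Nusap1 and Top2a stand highest above cluster 1 in cluster 6, while Ube2c and Birc5 peak in cluster 7.

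Each gene has 1 cluster where its level was highest. Among the 23 G2M genes this was cluster 6 for 11, cluster 7 for 8, cluster 10 for 3 and cluster 5 for 1. Among the 22 S genes it was cluster 6 for 11, cluster 7 and cluster 10 for 5 each and cluster 9 for 1. Cluster 1 was lowest for 18 G2M and 16 S genes, and cluster 3 for 4 and 6.

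Genes of chromosome structure differed in where they were highest. Hmgb2, a chromatin protein gene, was at 21.7 and 14.1 in cluster 6 (hashtags 1 and 3), 4.2 and 4.75 in cluster 7 (hashtags 3 and 4), 5.99, 4.97, 3.47 and 3.87 in cluster 3 and 0.957, 0.652, 1.05 and 1.38 in cluster 1 (hashtags 1, 2, 3 and 4). Both brains of cluster 6 lay above all others. Hmgb2 alone gave 53.0% and 51.7% of the G2M UMIs of cluster 6 and between 47.2% and 52.8% in cluster 3, against 19.8% to 27.4% in clusters 0, 2 and 7. Without Hmgb2 the summed G2M level was 18.9 and 12.2 in cluster 6 and 13.2 and 18.3 in cluster 7, so the 2 clusters overlapped.

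Top2a, which untangles DNA and is classed with G2M, was at 1.89 and 1.13 in cluster 6, 0.949 and 1.38 in cluster 7, 0.465, 0.279, 1.0 and 1.32 in cluster 2 and at most 0.224 in cluster 1. Here clusters 6 and 7 overlapped. Mki67, the gene of a protein that coats mitotic chromosomes, was at 0.596 and 0.527 in cluster 6 but at 0.0674 and 0.0889 in cluster 7 and 0.0865, 0, 0.0891 and 0.0693 in cluster 2. Of all Mki67 and Top2a UMIs of cluster 6, 26.8% were Mki67 (exact binomial 95% interval 20.9 to 33.4%), against 8.08% (6.61 to 9.76%) in cluster 0, 5.63% (4.61 to 6.79%) in cluster 2 and 5.67% (4.14 to 7.57%) in cluster 7. Intervals of single values cover counting error only. In cluster 3 it was 14.3% (7.07 to 24.7%). These percentages pool the UMIs of all brains and are no test between clusters. Of the 55 Mki67 UMIs of cluster 6, 45 came from the hashtag 1 brain. In the hashtag 3 brain cluster 6 had 7 Mki67 and 12 Top2a UMIs. Cluster 0 there had 35 and 355, cluster 2 had 47 and 556, and cluster 7 had 15 and 212. The Top2a levels of clusters 2, 7 and 6 overlapped.

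Birc5, a subunit of the Aurkb kinase complex, was at 2.46 and 3.01 in cluster 7, 1.98 and 1.76 in cluster 6, 0.789, 1.01, 2.47 and 2.49 in cluster 2 and at most 0.562 in cluster 1. Cenpf, a kinetochore gene, was at 0.799 and 1.34 in cluster 7, 0.579 and 0.478 in cluster 6 and 0.902, 0.822 and 0.743 in cluster 0. Cenpf stood out in being as high in the hashtag 1 brain as in the others in cluster 0, though in cluster 2 it was at 0.202, 0.129, 1.11 and 1.21. In cluster 1 it was at most 0.205. Nusap1, a spindle gene, was named after its values were seen: its mean was 0.84 in cluster 6, 0.28 in cluster 7 and 0.02 in cluster 1.

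The mitotic kinase and its partners lay above cluster 1 in all 4 clusters. Cdk1 was at 0.735 and 1.11 in cluster 7, 0.942 and 0.698 in cluster 6, 0.406, 0.382, 0.755 and 0.888 in cluster 2 and 0.147, 0.130, 0.195 and 0.199 in cluster 1. Cks2, which binds this kinase, was at 2.57 and 3.02 in cluster 7, 4.68 and 2.37 in cluster 6 and 0.426, 0.360, 0.588 and 0.723 in cluster 1. Ccnb1, a cyclin B gene, was at 0.324 and 0.505 in cluster 7, 0.401 and 0.174 in cluster 6 and at most 0.123 in cluster 1. The cluster 6 value of Ccnb1 in the hashtag 3 brain rests on 2 UMIs. Ube2c, which helps to end mitosis, was at 1.41 and 2.72 in cluster 7, 2.38 and 0.842 in cluster 6, 0.293, 0.770 and 1.06 in cluster 0 and at most 0.374 in cluster 1. Its log2 difference between clusters 7 and 1 was 2.37 and 2.57, the largest of the 45 genes in that contrast.

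The remaining G2M genes were Ccnb2, Cdc20, Ccna2, Tpx2, Aurka, Aurkb, Plk1, Cenpe, Kif20a, Kif11, Bub1b, Bub1 and Kif23, cyclins, kinases, motors and checkpoint genes of mitosis. Their cluster 7 means ran from 0.11 to 0.81, above their cluster 1 means in each case. Plk1, Aurkb, Kif20a, Kif11, Bub1b and Ccnb2 were highest in cluster 6, whereas Ccna2, Tpx2, Aurka and Cenpe were highest in cluster 7.

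Among the S genes of nucleotide synthesis, Rrm2, the regulated subunit of ribonucleotide reductase, was at 1.36 and 0.903 in cluster 6, 0.478 and 0.536 in cluster 7, 0.305, 0.328, 0.621 and 0.613 in cluster 2 and at most 0.164 in cluster 1. Cluster 6 lay above clusters 7, 2 and 1 in each. Its partner Rrm1 was instead at 0.539 and 0.538 in cluster 7, 0.556 and 0.260 in cluster 6 and at most 0.167 in cluster 1. Tk1, thymidine kinase, was at 0.691 and 0.813 in cluster 7, 0.718 and 0.626 in cluster 6, 0.461, 0.661 and 0.621 in cluster 0 and 0.0689, 0.0830, 0.116 and 0.206 in cluster 1. Dut, which removes dUTP, was at 1.55 and 1.89 in cluster 6, 1.19 and 1.20 in cluster 7 and 0.354, 0.398, 0.487 and 0.568 in cluster 1. Tyms, which makes thymidylate and was named after its values were seen, had a mean of 0.69 in cluster 6 and 0.44 in cluster 7.

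Of the replication machinery, Pcna was at 1.19 and 0.288 in cluster 6, the latter on 3 UMIs, 0.472 and 0.546 in cluster 7, and 0.275, 0.342, 0.333 and 0.328 in cluster 1. It was at 0.591, 0.600, 0.659 and 0.711 in cluster 3, above cluster 7 in each brain they share. Mcm5 was at 0.523 and 0.261 in cluster 6, 0.359 and 0.329 in cluster 7 and at most 0.0628 in cluster 1. Slbp, which binds histone mRNA, was at 1.40 and 1.04 in cluster 6, 0.774 and 0.738 in cluster 7 and 0.371, 0.267, 0.464 and 0.404 in cluster 1. Ccne1, a cyclin E gene, was at 0.162 and 0.128 in cluster 7 and at most 0.0555 in cluster 1. In cluster 6 Ccne1 was at 0.112 in the hashtag 1 brain and had no UMI in 26 cells of the hashtag 3 brain, which allows up to 0.327 (exact Poisson 95% limit).

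Cells were then counted. Each cell was thinned to 2495 UMIs, the lowest total of any cell, and counted where at least 3 genes of a list had a UMI. Of 4668 cells, 1555 carried G2M transcripts by this rule, 1025 S transcripts and 634 both. The rule marks cells and does not establish that a cell divides.

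The share of cells with G2M transcripts was 66.7% (exact binomial 95% interval 59.1 to 73.7%) in cluster 6 of the hashtag 1 brain and 13 of 26 cells (29.9 to 70.1%) in that of the hashtag 3 brain. In cluster 7 it was 38 of 76 cells (38.3 to 61.7%) in the hashtag 3 brain and 57.9% (48.5 to 66.8%) with hashtag 4. In cluster 2 it was 17.1%, 12.5%, 56.8% and 61.0% for hashtags 1, 2, 3 and 4. In cluster 0 it was 25%, 50.5% and 45.0% (hashtags 1, 3 and 4). Cluster 1 gave 3.78%, 1.94%, 5.52% and 11.9%. In the hashtag 1 brain the interval was 13.2 to 40.3% in cluster 0 and 1.90 to 6.66% in cluster 1. Intervals in this paragraph cover counting within 1 brain only and are no test between clusters. In cluster 2 of the hashtag 2 brain 3 of 24 cells counted (2.66 to 32.4%), beside 0.532 to 4.90% in cluster 1 there. The summed G2M UMIs of the same cells were 8.64 per 10000 (exact Poisson 95% interval 7.34 to 10.1), against 2.17 (1.94 to 2.42) in cluster 1 of that brain.

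Shares for S transcripts were lower in every one of these clusters except cluster 2 of the hashtag 1 and 2 brains, where they were equal to the G2M share. They were 46.2% and 30.8% in cluster 6, 35.5% and 28.9% in cluster 7, 17.1%, 12.5%, 35.4% and 39.0% in cluster 2, 15.9%, 30.9% and 32.0% in cluster 0 and 1.72%, 0.485%, 3.31% and 7.92% in cluster 1. Without thinning, 90.1% and 92.1% of cluster 7 cells (hashtags 4 and 3) and 11.2% to 34.3% of cluster 1 cells carried G2M transcripts.

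**Figure D3:**
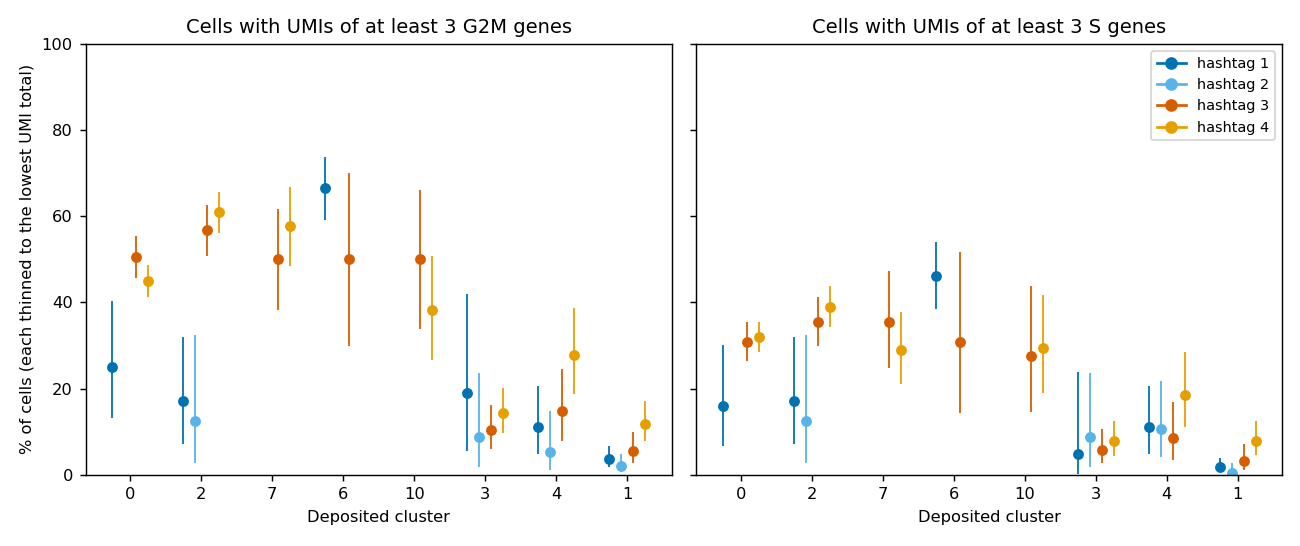
Share of cells (y axis, %) with UMIs of at least 3 G2M genes (left) or S genes (right) after thinning each cell to 2495 UMIs, by deposited cluster (x axis). Points are brains with at least 20 cells of the cluster and bars are exact binomial 95% intervals. Cluster 6 of the hashtag 1 brain is highest at 66.7%, and cluster 1 lies at 11.9% or below.

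The cells behind these counts came from different clusters in different brains. In the hashtag 1 brain 173 of 844 cells carried G2M transcripts, and 114 of the 173 were in cluster 6. In the hashtag 2 brain it was 26 of 410 cells, spread over 9 of the 11 clusters. In the hashtag 3 brain it was 515 of 1385 cells, 214 from cluster 0 and 162 from cluster 2. In the hashtag 4 brain it was 841 of 2029 cells, 317 from cluster 0 and 261 from cluster 2.

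The G2M UMIs were also set beside those of Rhox5 and Esx1, the transcripts that clusters 0, 2 and 7 hold. Cluster 1 had 3.12, 3.00, 2.14 and 2.78 G2M UMIs per Rhox5 or Esx1 UMI (hashtags 1, 2, 3 and 4), and clusters 0, 2 and 7 had between 1.08 and 2.95. Cluster 6 had 56.1 and 24.5 (hashtags 1 and 3), and cluster 3 had 13.8, 7.06, 5.52 and 7.80. Clusters 6 and 3 thus had more G2M UMIs per Rhox5 or Esx1 UMI than clusters 0, 2, 7 and 1. Their ratios rest on few Rhox5 and Esx1 UMIs, 51 and 12 in cluster 6 and 8, 18, 92 and 83 in cluster 3. Hmgb2 alone gave 47.2% to 53.0% of the G2M UMIs of these 2 clusters, and ratios without it are not given. The part of free RNA in the levels was not tested.

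**Figure D4:**
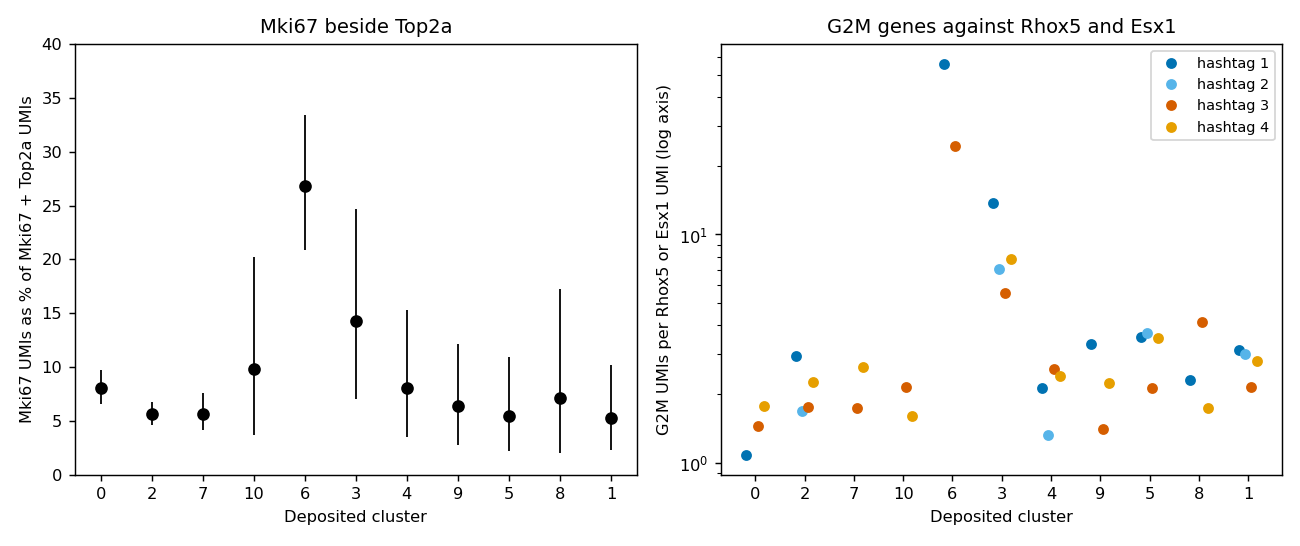
Left, Mki67 UMIs as a percentage of Mki67 and Top2a UMIs in each deposited cluster, all brains pooled, with exact binomial 95% intervals. Right, G2M UMIs per Rhox5 or Esx1 UMI (log axis) by cluster, each point 1 brain with at least 20 cells. Cluster 6 is highest in both, at 26.8% and at 56.1 and 24.5.

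Within cluster 6, cells with G2M transcripts, called marked cells, were set beside cells without them. The marked cells were chosen on the G2M members, so higher levels of other G2M genes follow in part from that choice. Of the other 42 G2M genes of a fixed list, 41 were higher in the marked cells of the hashtag 1 brain (summed level 40.9 in 114 cells against 17.9 in 57) and 27 in the hashtag 3 brain (39.5 in 13 cells against 15.7 in 13). The S members were at 13.0 against 10.7 and at 10.0 against 8.38, with 12 and 10 of 22 genes higher. The share of all genes higher in marked cells was not counted, so these counts are descriptions. Neutrophil markers were at 1212 against 1160 in the hashtag 1 brain and at 583 against 405 in the hashtag 3 brain. T cell markers were at 0.516 against 0.852 (hashtag 1) and at 8.39 against 4.21 (hashtag 3). In the hashtag 3 brain Cd3e had a UMI in 4 of 13 marked and 1 of 13 unmarked cells. NK cell markers were at 2.64 against 2.25 and at 12.7 against 33.4, so not all cells of cluster 6 need be of the neutrophil line. The 6 erythroid markers, hemoglobin genes among them, were at 37.4 against 3.85 and at 83.9 against 3.91. The 5 and 1 cells with an erythroid sum of at least 50 per 10000 (hashtags 1 and 3) were all marked cells. The erythroid difference without them was not computed, so it may rest on these few cells. Leaving them out gave a G2M level of 39.0 and 25.1, close to 40.6 and 26.3 with them. Retnlg, a gene of mature neutrophils, was at 27.7 against 64.5 in the hashtag 1 brain and at 18.1 against 7.45 in the hashtag 3 brain, so it did not move one way.

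Within clusters 0, 2 and 7 of the hashtag 3 and 4 brains, marked cells had 39 or 40 of the other 42 G2M genes higher and 15 to 19 of the 22 S members. Of 13 chromatin assembly genes, 12 or 13 were higher in the marked cells. Here too the share of all genes higher in marked cells was not counted, so the counts do not set these lists apart from other genes. Choroid plexus markers summed to 106 to 122 in marked cells and 162 to 364 in the rest. In cluster 0 of the hashtag 1 brain they summed to 576 in 11 marked cells and 2040 in 33 unmarked cells. In cluster 7 the unmarked cells also had more of the 5 immune markers (9.52 against 4.58 and 15.2 against 2.84, hashtags 3 and 4) and of the 7 endothelial markers (6.47 against 1.35 and 8.78 against 1.69). The part of RNA from other cells in these differences was not tested.

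Depth and RNA quality were compared between marked and unmarked cells of the same cluster and brain. In cluster 0, marked cells had more UMIs in all 3 brains (medians 11695 against 5003, 13858.5 against 13345.5 and 13345 against 12556, hashtags 1, 3 and 4). Their median mitochondrial share in the hashtag 1 brain was 1.48% against 8.53%, while in the hashtag 3 brain it was 1.3% against 1.31%. Over 16 such comparisons the lowest two-sided p of the exact paired permutation test was 0.25 (0.727 after Benjamini-Hochberg adjustment), which is the smallest p that 3 brains allow, and 2 brains allow 0.5 at best.

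The CD45 antibody tag, a mark of blood-derived cells and microglia, gives a readout that neither the gene list nor the clusters used. Cells with a CD45 tag count of at least 300 (230, 75, 255 and 351 cells in the brains with hashtags 1, 2, 3 and 4) were compared with the other cells of the same brain, on log2(mean level + 0.1), in limma with a term for each brain. No G2M and no S gene passed an adjusted p of 0.05, against 8.47% of 12669 genes higher and 2.30% lower in tag-high cells. edgeR and DESeq2 on recovered counts also called 0 of the 45. At an unadjusted limma p under 0.05 it was 2 of 23 G2M and 2 of 22 S genes. Of all genes, 8.47% and 2.30% passed even the adjusted threshold, so these counts do not set the members apart.

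The direction differed between brains. The summed G2M level of tag-high against tag-low cells was 29.7 against 6.01, 11.1 against 2.72, 10.5 against 13.7 and 10.7 against 15.4 for hashtags 1, 2, 3 and 4. The S level was 8.79 against 3.59, 5.61 against 2.45, 4.91 against 7.28 and 5.74 against 8.38. Of the 23 G2M genes 22 were higher in tag-high cells of both the hashtag 1 and 2 brains, against 33.4% of all genes, and 20 were lower in those of both the hashtag 3 and 4 brains, against 42.2%. For the 22 S genes these numbers were 20 and 20. A difference between brains has no test here, since each brain is 1 sample.

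The mix of cells also differed between brains. Cluster 6 made up 65.7% of tag-high cells with hashtag 1 and 12%, 10.2% and 4.84% with hashtags 2, 3 and 4. Cluster 3 made up 9.13%, 45.3%, 60.4% and 55.3% of them, so the tag-high mix of the hashtag 2 brain was closer to those of hashtags 3 and 4 than to that of hashtag 1. Clusters 0, 2 and 7 made up 36.6%, 23.4% and 5.66% of tag-low cells in the hashtag 3 brain and 40.9%, 23.4% and 5.72% in the hashtag 4 brain. Cluster 1 made up 44.0% and 57.9% of tag-low cells in the hashtag 1 and 2 brains. The part of this mix in the differences was not tested.

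**Figure D5:**
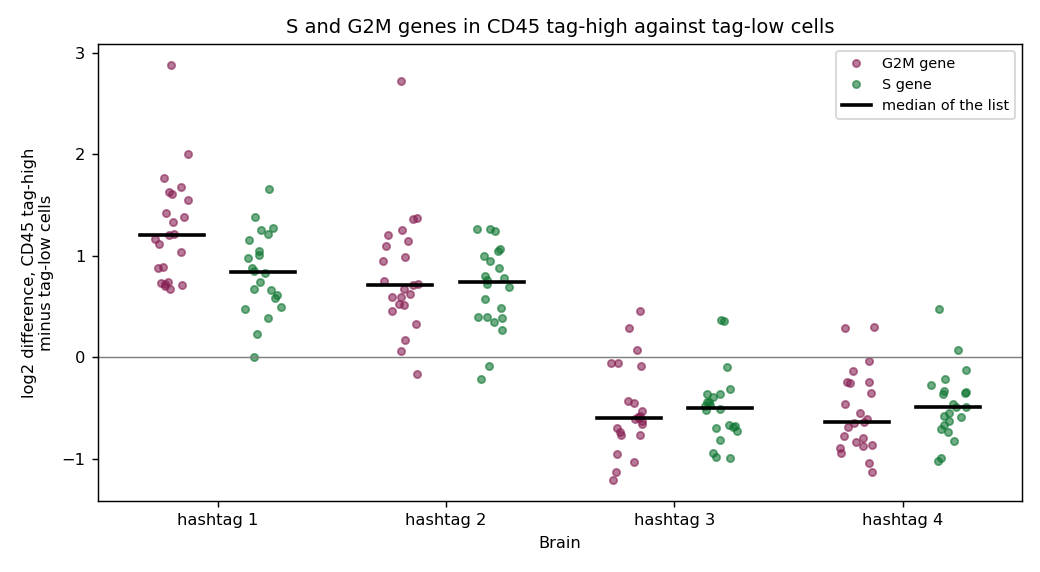
Log2 difference of each G2M gene (purple) and S gene (green) between CD45 tag-high and tag-low cells of the same brain (y axis), by brain (x axis). Black bars are list medians, at 1.21 and 0.84 in the hashtag 1 brain and at -0.64 and -0.49 in the hashtag 4 brain for G2M and S genes.

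Mki67, Hmgb2, Pcna and Slbp were the 4 members higher in tag-high cells of all 4 brains, as were 17.6% of all genes. Hmgb2 was at 15.9 against 2.06, 5.46 against 0.743, 4.83 against 3.48 and 4.33 against 3.53 (log2 difference 1.59, SE 0.46, limma adjusted p = 0.0661). Pcna was at 0.879 against 0.374, 0.760 against 0.367, 0.602 against 0.446 and 0.715 against 0.485 (0.69, SE 0.19, limma adjusted p = 0.0527). Mki67 was at 0.378 against 0.0568, 0.0735 against 0.00472, 0.0946 against 0.0586 and 0.0927 against 0.0560 (0.73, SE 0.24, limma adjusted p = 0.0933). None of these passed the test over all genes. Top2a, by contrast, was at 1.32 against 0.254 in the hashtag 1 brain and at 0.503 against 0.932 in the hashtag 4 brain (0.50, SE 0.45, limma adjusted p = 0.505).

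Of 18 listed genes that slow the cycle, 16 were tested, and 4 rose in tag-high cells and 0 fell, beside the 8.47% and 2.30% of all genes. Each of the 4 was higher in 4 of 4 brains. Btg1, an antiproliferative gene, rose by 2.25 (SE 0.18, limma adjusted p = 0.000202), and its relative Btg2 by 2.06 (SE 0.28, limma adjusted p = 0.00249). Cdkn1a, a cyclin-dependent kinase inhibitor, rose by 1.10 (SE 0.24, limma adjusted p = 0.0213), and the cyclin G gene Ccng2 by 1.05 (SE 0.25, limma adjusted p = 0.0348). Btg1, Btg2 and Cdkn1a had means of 8.49, 6.24 and 4.24 in cluster 3. In cluster 4, where 7.12% of cells were tag-high, they had means of 2.38, 3.34 and 4.85. Cdkn1a was thus highest in cluster 4. The kinase inhibitor gene Cdkn1c, named after its values were seen, was lower in tag-high cells of all 4 brains and did not pass (log2 difference -1.0, SE 0.31, limma adjusted p = 0.0776). The difference between the brake genes and the members was not tested.

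The other lists had different numbers of genes at least 2-fold higher than in cluster 1, beside 7.53% of all genes in cluster 7 and 7.14% in cluster 6. Of the 42 other G2M genes, 16 were at least 2-fold higher than in cluster 1 in both brains in cluster 7 and 16 in cluster 6. Of its 3 genes with the highest levels, Cks1b had means of 4.34 in cluster 7, 2.76 in cluster 6 and 0.79 in cluster 1, and Stmn1 1.83, 5.18 and 0.49. Arl6ip1 went against the list, with 1.22, 4.37 and 25.1, and leads cluster 1. Of the 32 other S genes, 6 passed in cluster 7 and 9 in cluster 6. Rfc2, a clamp loader gene, had means of 0.86, 1.01 and 0.28, Tipin, a fork protein gene, 0.74, 0.91 and 0.36, and Gmnn, a licensing inhibitor, 0.77, 0.71 and 0.15.

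Chromatin assembly genes gave 6 of 13 in cluster 7 and 8 of 13 in cluster 6. Ptma had means of 20.2 in cluster 7, 35.9 in cluster 6 and 10.3 in cluster 1, the histone variant gene H2afz 13.1, 21.2 and 4.45, and the transport GTPase gene Ran 13.0, 6.13 and 3.40. Of 17 regulators, 4 passed in cluster 7 and none in cluster 6: Myc had means of 0.69, 0.33 and 0.17, E2f4 0.53, 0.41 and 0.13, and Fzr1 0.34, 0.34 and 0.16. Of 8 G1 cyclins and kinases, 3 passed in cluster 7 and 1 in cluster 6. Ccnd1, cyclin D, had a mean of 1.86 in cluster 7 and 0.26 in cluster 6, beside 0.34 in cluster 1. Its partner Cdk4 was at 2.42, 0.97 and 0.59, and Ccnd2 at 2.37, 1.04 and 1.69. Ccnd3 and Cdk2, named after their values were seen, went the other way, at 0.48 and 0.17 in cluster 7 against 1.26 and 0.26 in cluster 6, and Cdk6 was at 1.26 and 1.25. Of 18 brake genes, 1 was 2-fold higher and 2 lower than in cluster 1 in cluster 7, and 3 and 2 in cluster 6. The 1 of 18 in cluster 7 is near the 7.53% of all genes. The share of all genes 2-fold lower is not given here, so the counts of lower genes are descriptions.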

How the data were processed

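Cells of 4 hashed brains were run as 1 pool on the 10x Genomics platform with 6 antibody tags. Cell Ranger 2.1, Seurat 2.3.4 and mm10 are named in the submitters' processing notes. Gene expression was deposited by the authors as a natural log, taken after adding 1 to UMIs per 10000. The deposited cell table gives antibody tag counts, the mitochondrial fraction, hashtag class, cluster and an unused hashtag p-value, all made by the authors. Undoing the log gave back UMI counts, of which 99.8% were whole within 0.01. All cells were kept, without a doublet caller. The 4668 cell barcodes were distinct. Total UMIs per brain ran from 2529485 to 26196431, and cells held 2495 to 43038 UMIs.

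Tests used limma 3.58.1 (trend) with the brain as a block, on genes with a UMI in at least 1% of cells, with Benjamini-Hochberg adjustment, beside edgeR 4.0.16 and DESeq2 1.42.0. The same 4 brains gave both classes, so the block follows the animal. Scripts were tested on simulated data. Brains are the replicates. The members and lists were chosen with earlier results of these data known. Genes named with values are the 6 G2M and 6 S members with the highest levels over clusters 0, 2, 7 and 6, with Mki67, Ccnb1, Cdk1, Pcna, Mcm5 and Ccne1, and the 3 highest of each other list, and other names were chosen after values were seen. The alternatives tried are in the closing section.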

Additional observations from a re-analysis of the deposited data

How the results depend on the processing

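Counts of members at least 2-fold higher depended on the pseudocount, since most members are low. For G2M genes in clusters 0, 2, 7 and 6 against cluster 1 (4, 3, 15 and 15 in the main setting), a pseudocount of 1 gave 0, 0, 4 and 2, and one of 0.01 gave 11, 10 and 23 in the first 3. A fold of 4 gave 0, 0, 1 and 5, and a fold of 1.5 gave 8 and 9 in clusters 0 and 2. For S genes (1, 1, 8 and 10), a pseudocount of 1 gave 0 in each, one of 0.01 gave 6, 6, 18 and 16, a fold of 4 gave 0, 0, 0 and 2, and a fold of 1.5 gave 6, 3, 17 and 17. With own-hashtag cells of at least 80%, cluster 2 gave 11 G2M and 8 S genes, cluster 0 gave 2 S genes and cluster 6 gave 19 S genes. UMIs summed over cells gave 7 G2M and 2 S genes in cluster 2, and a minimum of 10 cells gave 6 S genes in cluster 6. Against cluster 3, cluster 6 (13 G2M, 9 S) gave 1 and 1 at a fold of 4 and 1 and 0 at a pseudocount of 1. At a fold of 1.5, 2 G2M genes passed in cluster 2 against 0 and 1 in cluster 7 against 0. Leaving out 1 brain at a time gave ranges for G2M and S genes of 4 to 10 and 1 to 9 (cluster 0 against 1), 3 to 9 and 1 to 5 (2 against 1), 15 to 17 and 8 to 14 (7 against 1), 15 to 20 and 10 to 17 (6 against 1), 13 to 18 and 9 to 15 (6 against 3), and 0 to 1 G2M genes (7 against 0). Cluster 6 against 3 could not be run with own-hashtag cells. The share of all genes is not given for these settings, so the counts are descriptions.

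Mean shares of cells with G2M transcripts in clusters 0, 2, 7, 6 and 1 were 40.2%, 36.8%, 53.9%, 58.3% and 5.78%. Unthinned they were 78.6%, 63.2%, 91.1%, 72.6% and 24.0%. With the other G2M genes they were 62.6%, 71.8%, 77.7%, 77.4% and 52.3%, the last with Arl6ip1 in the list. With 2 genes they were 55.2%, 71.8% (cluster 7), 77.8% (cluster 6) and 14.6% (cluster 1), and with 5 genes 17.2%, 35.2%, 33.9% and 1.38% in the same 4 clusters. S shares (26.3%, 26.0%, 32.2%, 38.5% and 3.36%) were 76.3%, 61.1%, 90.6%, 58.8% and 22.2% unthinned, 43.9%, 45.0%, 52.8%, 53.9% and 14.1% with 2 genes, and 4.66%, 5.66%, 9.15% and 14.5% with 5 genes in clusters 0, 2, 7 and 6.

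Without the replicate block, which follows the same brains, limma called 1 S gene higher (Pcna) and no G2M gene, and changed no other call among members. A pseudocount of 0.01 also called 1 S gene, Pcna. Leaving out 1 brain gave 0 to 1 G2M genes, Hmgb2 without hashtag 3 or 4. Over all genes the number lower (291) was 51 in edgeR, 160 in DESeq2, 98 at a pseudocount of 1, 97 with no filter, 103 with own-hashtag cells and 34 to 588 leaving out 1 brain, and the number higher (1073) was 711 with genes in at least 5% of cells and 666 with own-hashtag cells. Readouts of marked cells that turned sign, none of which passed a test, were the CD45 tag in cluster 2 (1.5, or -74.1 as a mean), UMIs (907, or -137.5 to 1951.5 leaving out 1 brain), mitochondrial percent (-0.0942, or -0.279 to 0.0910) and CD45 tag (-4, or -19.5 to 11.5) in cluster 7, and in cluster 6 genes per cell (57.5, or -12 to 127) and mitochondrial percent (0.10, with -0.0192 at 2 genes, -0.387 as a mean and -0.0131 to 0.214 leaving out 1 brain).

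Cluster 6 rests on 1 brain for most cells, clusters 6 and 7 on 2 brains each, and most members have under 1 UMI per 10000, which limits single-gene values in the brains with hashtags 1 and 2.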

Other observations

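Outside the lists, the genes whose log2(level + 0.1) over 35 brain and cluster units was most like that of the summed G2M genes were Lockd (Pearson r = 0.922), Snrpg (0.907), Wdr89 (0.900), Rpsa (0.900), Ube2s (0.888), Pmf1 (0.886), 2810417H13Rik (0.884), Mrpl33 (0.882), Rpl10a (0.880) and Gm8186 (0.879). For the summed S genes they were Ethe1 (0.905), Mgst2 (0.904), Ranbp1 (0.903), Snrpf (0.898), Impdh2 (0.890), Nap1l1 (0.890), Rpl28 (0.883), Eif5a (0.882), Pmf1 (0.882) and Lyar (0.880). The summed S and G2M levels were related at r = 0.918 over the same units, which share a library pool, brains and depth, so these values are descriptions. Lockd had a mean level of 1.29 in cluster 6, 0.832 in cluster 7 and 0.0995 in cluster 1. Cluster 10, led by hemoglobin genes, had a summed G2M level of 18.4 and 13.5 and an S level of 8.51 and 8.47 in the hashtag 3 and 4 brains. Cluster 5, with a median mitochondrial share of 14.8%, had a G2M level of 2.27 for hashtag 2 and 16.4 for hashtag 4.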
